A study of Mus musculus with 12 samples.

Results

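Cell cycle and DNA replication genes were followed across 2 mouse bone cell lines, each measured in 2 groups of 3 one-colour spotted arrays of total RNA. A spot belonged to the set when its gene symbol began with the stem of a cyclin, cyclin-dependent kinase, Cdc, Mcm, Orc, Rfc, E2f, DNA polymerase alpha, delta or epsilon, Plk, Aurk, Bub, Kif or Rrm gene, or was Pcna, Prim1, Prim2, Top2a, Mki67 or Nasp. The rule found 75 spots for 74 genes, of 5030 spots and 4605 named genes on the array. It left out 2 spots of Cdc42 and a gene named for it, and it used no measured value. The stems also take in genes with other work in the cell, such as the transport kinesins Kif5b and Kif3a and the transcriptional cyclin Ccnt1, so the members are described by role.

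A dividing cell passes its start point when D-type cyclins and their kinases release E2F factors from the retinoblastoma proteins. E2F factors then drive genes for licensing origins, making deoxynucleotides and copying DNA, while mitotic genes such as Plk1, Kif20a and Cdc25c come on later, before division. In bone, osteoblasts divide and lay down matrix, and osteocytes are their non-dividing descendants buried in it.

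The line 2T3 is an osteoblast line from a mouse in which the BMP-2 promoter drives SV-40 T antigen, and MLO-Y4 is an osteocyte line from a mouse with T antigen behind the osteocalcin promoter. All 4 groups therefore carry T antigen, which binds retinoblastoma proteins and p53, and each cell type is represented by 1 line, so cell type and line cannot be told apart. The 2T3 groups are called low and C0, and the MLO-Y4 groups low and high. The labels speak of osteoblasts at low density and at confluency and of osteocytes with and without gap junctions, and C0 and high were read as the denser state only because the other group of each line is called low. Neither culture times nor the age of the mice are given in the sources used here. The labels do not say that the 3 arrays of a group came from separate cultures, so every p-value covers array-to-array spread alone, and that spread may be technical.

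Deposited intensities ran from -23 to 53055, array medians from 4 to 55, and array totals from 212491 to 1680311. A spot counted as detected on an array where it exceeded the absolute value of that array's lowest intensity, called the limit here, and between 37.9% and 74.8% of spots, and between 41 and 64 members, lay above it on a single array. Levels below are quantile-normalized intensities, with anything under 6.08 set to 6.08, and differences are on the log2 scale. Of the members, 27 were above the limit on all 12 arrays (36.0%, against 24.9% of all spots), 56 on at least 6 arrays, 16 on 1 to 5 and 3 on none (Ccna1, Kif9 and Rfc1). The osteocyte markers Pdpn, Cd44, Ackr3, Dstn and Capg lay above this limit on each of the 12 arrays and were higher in MLO-Y4. Phex was above the limit on none. With Phex included, the 6 osteocyte markers summed to 706 to 1643 on 2T3 arrays and 5735 to 8283 on MLO-Y4 arrays. The osteoblast markers Alpl and Dlx5 were above the limit on all 12 arrays, Bglap on 10, and Ibsp and Omd on 5 and 4, and none of these 5 passed the test between the lines. Their differences had both signs, 2.08 for Alpl and -1.86, -2.02, -0.47 and -1.13 for Dlx5, Bglap, Ibsp and Omd. Of markers of other cells, Ptprc, Comp and Ckm were above the limit on no array, Myod1 and Ctsk were above it on all 12, and between the lines Tyrobp and the adipocyte marker Pparg were lower in MLO-Y4 (-3.25 and -2.39, adjusted p = 0.00680 and 0.0108) while Csf1r, above the limit on 3 arrays, was higher (0.99, adjusted p = 0.0247). The 6 measured of 8 macrophage or osteoclast markers summed to 200 to 477 on 2T3 arrays and 171 to 514 on MLO-Y4 arrays. The part of such signals in the results was not tested.

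Array 2T3 low replicate 1 stood apart for the gene set and, to a lesser degree, over all spots. On 2T3 low replicate 1, 16 of the 56 members above the limit on at least 6 arrays (28.6%) had their lowest value of the 12, compared with 13.6% of 3131 spots filtered the same way. The median member lay 0.74 below its own 12-array mean there, while the other 11 arrays lay between -0.39 and 0.54. Results that rest on this array are given with and without it. The arrays numbered 1 of MLO-Y4 low and high had the fewest spots above the limit (38.1% and 37.9%). Over all spots, 2T3 low replicate 1 had a Spearman correlation of 0.715 and 0.716 with replicates 2 and 3 of its group, against 0.871 between those. The arrays numbered 1 of the other groups were also less like their own group, with Spearman correlations of 0.66 to 0.73.

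**Figure D1:**
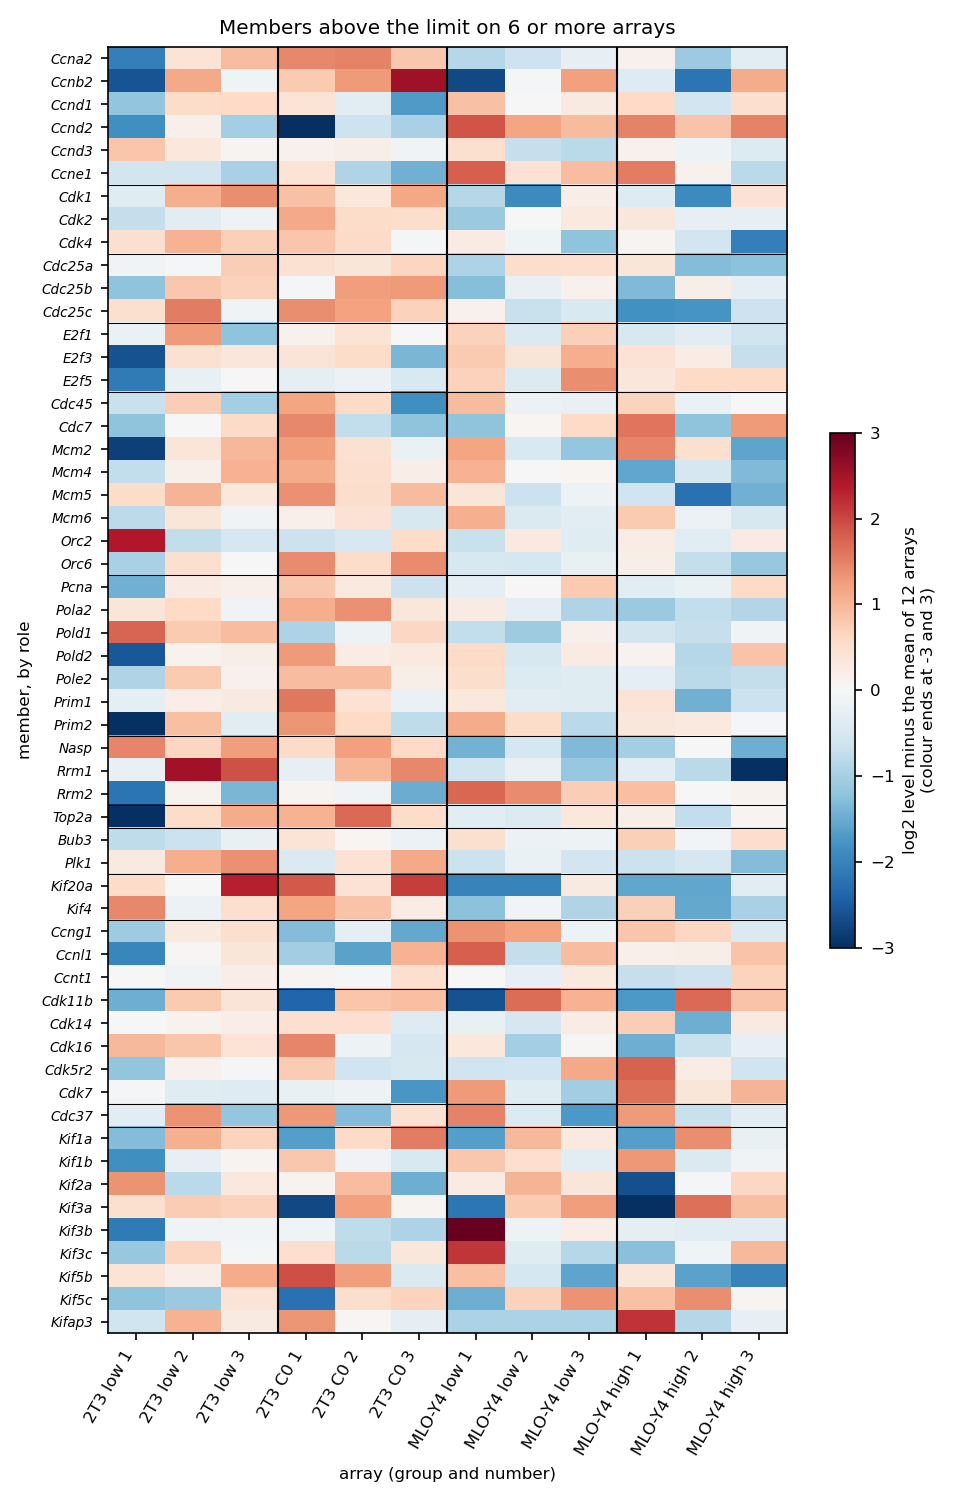
Log2 level of each of the 56 members above the detection limit on at least 6 arrays, as the difference from that member's mean over 12 arrays, by array (columns) and role (rows). The column of 2T3 low replicate 1 holds the lowest value of the row for 16 members, and Ccnd2 is high in all 6 MLO-Y4 columns.

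Between the lines, the gene set split. Ccnd2, a D-type cyclin, and Rrm2, the small subunit of ribonucleotide reductase, were higher in MLO-Y4, by 6.10-fold and 3.12-fold. Nasp, a histone chaperone, Mcm5, a subunit of the replicative helicase, Pola2, a subunit of polymerase alpha, and the mitotic genes Cdc25c and Plk1 were lower in MLO-Y4, by 2.33-fold to 3.78-fold. The mitotic kinesin Kif20a was lower as well, with 2 of 6 MLO-Y4 arrays above the limit. These 8 of 75 members passed an adjusted p of 0.05 in limma (10.7%), where 9.3% of all 5030 spots did. By direction, 2 members were higher (2.67%, against 5.83% of spots) and 6 were lower (8%, against 3.48% of spots). At an unadjusted p of 0.05 the shares were 22 of 75 members (29.3%) and 21.1% of spots. The median member difference, MLO-Y4 minus 2T3, was -0.12, beside -0.03 for all spots, and became 0.28 beside 0.11 with arrays scaled to equal medians and -0.41 beside -0.41 with arrays scaled on the spots detected everywhere. Over spots above the limit on all 12 arrays it was -0.19 for members and 0.04 for all, and under the same alternatives 0.58 and 0.79, then -0.28 and -0.07. The sign of the typical member's difference therefore turned with the scaling, while the median of the 27 members detected everywhere stayed below that of all such spots under each of the 3.

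The members that passed this comparison and had an entry in the RefSeq table of mouse promoters (assembly GRCm38.p6) included Mcm5, Plk1 and Rrm2, whose upstream bases are shown because these genes carry the replication, mitotic and nucleotide parts of the line difference. Top2a is shown beside them because its level on 1 array stands out in the density comparison below. Capitals mark the motifs searched, on either strand, within 250 bases before the start: E2F as TTTCGCGC, TTTGGCGC, TTTCCCGC or TTTGCCGC, the CHR element as TTTGAA or TTCGAA, and CCAAT. Each is written 5' to 3' on the gene's own strand and stops where the annotated gene begins.
Mcm5: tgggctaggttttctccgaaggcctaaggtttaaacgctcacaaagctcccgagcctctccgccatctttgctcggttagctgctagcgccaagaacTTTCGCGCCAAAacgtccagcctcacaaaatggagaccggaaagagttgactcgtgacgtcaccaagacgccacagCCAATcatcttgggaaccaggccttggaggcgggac
Plk1: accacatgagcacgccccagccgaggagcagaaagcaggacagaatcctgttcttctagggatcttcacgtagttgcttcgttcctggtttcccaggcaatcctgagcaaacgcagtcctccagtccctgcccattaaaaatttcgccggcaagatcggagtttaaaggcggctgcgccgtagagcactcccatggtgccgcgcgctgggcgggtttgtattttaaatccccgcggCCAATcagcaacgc
Rrm2: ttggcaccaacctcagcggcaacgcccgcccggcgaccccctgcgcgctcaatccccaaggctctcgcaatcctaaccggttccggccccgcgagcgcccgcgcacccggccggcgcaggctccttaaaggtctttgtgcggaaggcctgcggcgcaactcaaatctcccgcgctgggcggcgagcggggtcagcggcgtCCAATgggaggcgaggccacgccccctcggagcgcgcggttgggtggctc
Top2a: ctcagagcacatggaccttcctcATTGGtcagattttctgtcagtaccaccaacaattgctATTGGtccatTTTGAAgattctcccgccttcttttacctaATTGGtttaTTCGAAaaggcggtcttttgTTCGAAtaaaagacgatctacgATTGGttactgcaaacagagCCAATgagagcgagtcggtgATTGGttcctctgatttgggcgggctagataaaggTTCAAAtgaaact

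The Mcm5 sequence is chr8:75109259-75109467, plus strand, that of Plk1 chr7:122159185-122159434, plus strand, that of Rrm2 chr12:24708004-24708253, plus strand, and that of Top2a chr11:99024200-99024439, minus strand. The Mcm5 window held 2 overlapping E2F matches, one on each strand, and 2 CCAAT matches, of which the one nearer the start lies past the printed stretch. Plk1 and Rrm2 held 1 CCAAT match each. Top2a held 4 CHR and 6 CCAAT matches. Pola2 held none of the 3 motifs, and Nasp, whose window lies inside its annotated gene and is not printed, held 1 CHR and 2 CCAAT matches. Ccnd2, Kif20a and Cdc25c had no entry. Over the set, 60 of 74 genes matched, with 73 promoters, and the E2F letters were in 9 of them (12.3%) against 2.8% of the 4744 promoters of genes on the array and 1.86% of all 32851 in the table. CCAAT was in 40 (54.8%) against 34.2% and 33.8%, and the CHR letters in 14 (19.2%) against 13.2% and 17.1%. Within the set, the 47 promoters of cyclin, kinase, replication and mitotic members held the E2F letters in 19.1%. The 26 promoters of other cyclins, Cdc37, other Cdk genes and other kinesins held them in 0%. A match describes the letters and is not a site.

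**Figure D2:**
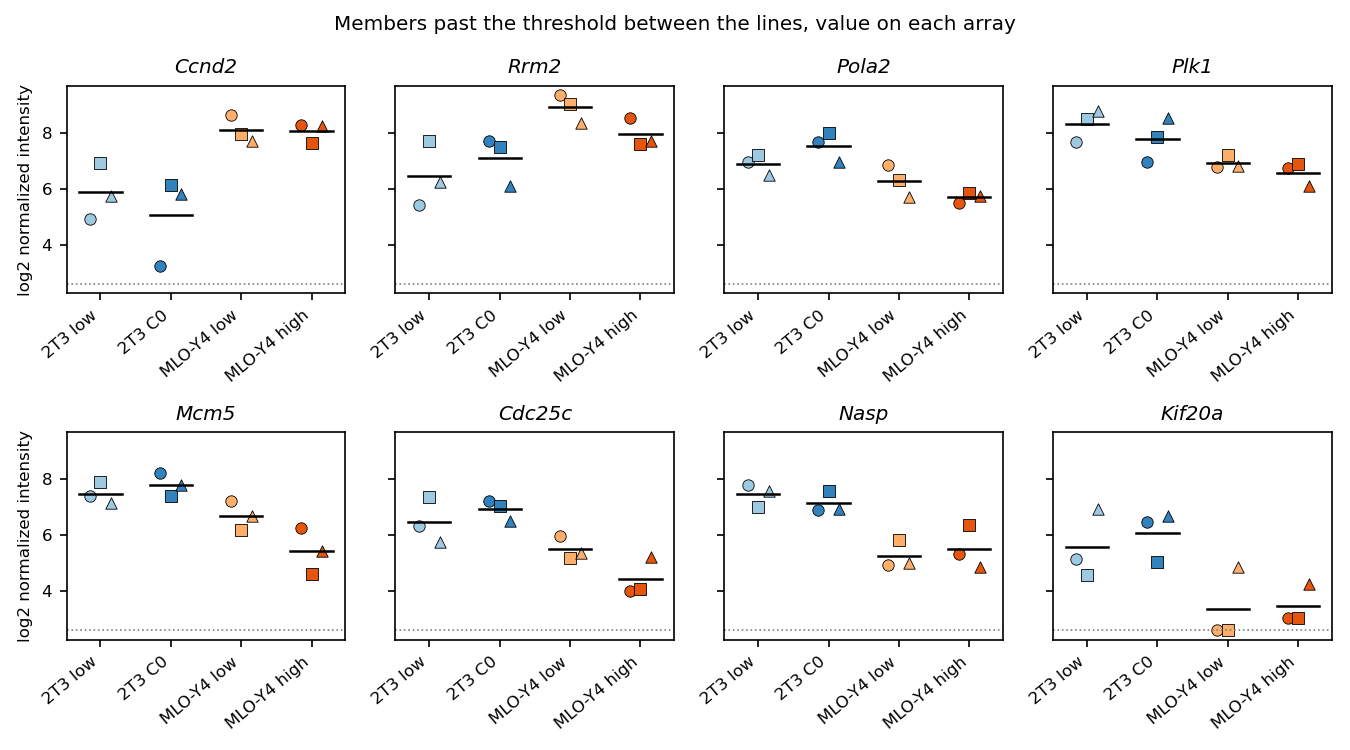
Log2 of the quantile-normalized intensity of the 8 members that passed the test between the lines, by group. Circles, squares and triangles are arrays 1, 2 and 3 of a group and the black line is their mean. The dotted line is the floor, 2.60 on this log2 scale (an intensity of 6.08). The 6 MLO-Y4 arrays lie above the 6 2T3 arrays for Ccnd2 and below them for Nasp, and the lines overlap for the other 6.

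Among the cyclins that drive the cycle, Ccnd2 alone passed the test between the lines. Its level was 30.3, 122 and 53.3 on 2T3 low arrays, 9.50, 70.4 and 55.4 on 2T3 C0 arrays, 399, 248 and 210 on MLO-Y4 low arrays and 306, 195 and 303 on MLO-Y4 high arrays. Every MLO-Y4 array was above every 2T3 array, and the lowest value, on 2T3 C0 replicate 1, was below that array's limit. The difference was 2.61 (SE 0.53, n = 6 arrays a line, adjusted p = 0.0121), with a 95% interval of 1.42 to 3.80. Ccnd2 and Nasp were the only 2 members whose lines did not overlap (2.67%, against 5.84% of spots). The other D-type cyclins had small differences that did not pass, 0.55 (SE 0.46, adjusted p = 0.573) for Ccnd1 and -0.48 (SE 0.28, adjusted p = 0.380) for Ccnd3. Ccne1, which acts at the start of replication, ran from 92.1 to 334 in 2T3 and from 143 to 864 in MLO-Y4, a difference of 1.34 (SE 0.46, adjusted p = 0.118). The replication and mitotic cyclins Ccna2 and Ccnb2 differed by -1.0 each (SE 0.49 and 0.88, adjusted p = 0.281 and 0.597). Ccne2 was above the limit on 2 arrays, both 2T3 low.

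The kinases that pair with these cyclins did not pass. Cdk1, the mitotic kinase, had levels of 276, 754 and 940 in 2T3 low, 656, 446 and 789 in 2T3 C0, 195, 94.5 and 406 in MLO-Y4 low and 272, 94.0 and 479 in MLO-Y4 high. The lines overlapped, and the difference of -1.49 (SE 0.52) had an adjusted p of 0.116. Cdk4, the partner of D-type cyclins, differed by -1.20 (SE 0.40, adjusted p = 0.107) and Cdk2, the partner of E- and A-type cyclins, by -0.33 (SE 0.29, adjusted p = 0.598). The E2F factors gave -0.13 for E2f1 (SE 0.40, adjusted p = 0.897), 0.74 for E2f3 (SE 0.58, adjusted p = 0.545) and 1.08 for E2f5, a repressor form (SE 0.42, adjusted p = 0.164).

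All 3 Cdc25 phosphatases, which switch the kinases on by removing an inhibitory phosphate, had lower means in MLO-Y4 under each of the 3 scalings, and Cdc25c passed the test. Cdc25c read 80.3, 166 and 53.3 in 2T3 low, 150, 132 and 91.6 in 2T3 C0, 62.5, 35.9 and 41.3 in MLO-Y4 low and 16.2, 16.8 and 37.2 in MLO-Y4 high. Only 1 MLO-Y4 array, low replicate 1, exceeded the lowest 2T3 array, and the value on MLO-Y4 high replicate 1 was below that array's limit. The difference was -1.74 (SE 0.35, adjusted p = 0.0114), 3.34-fold lower. Cdc25b and Cdc25a differed by -0.93 (SE 0.47, adjusted p = 0.308) and -0.69 (SE 0.38, adjusted p = 0.359).

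Nasp gave the smallest adjusted p of the set. It carries histones to newly copied DNA, and its level was 223, 127 and 192 in 2T3 low, 120, 191 and 122 in 2T3 C0, 30.4, 56.5 and 32.2 in MLO-Y4 low and 39.8, 81.4 and 29.3 in MLO-Y4 high. Every MLO-Y4 array was below every 2T3 array, and 4 of the 6 MLO-Y4 arrays were above their limit. The difference was -1.92 (SE 0.32, adjusted p = 0.00417), 3.78-fold lower, with a 95% interval of -2.63 to -1.20. The adjusted p was 0.0859 when all 4 arrays numbered 1 were left out (difference -1.73).

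The subunits of ribonucleotide reductase, the enzyme that makes deoxynucleotides, had differences of opposite sign. Rrm2 was at 42.7, 209 and 75.2 in 2T3 low, 206, 181 and 69.0 in 2T3 C0, 641, 520 and 325 in MLO-Y4 low and 363, 194 and 209 in MLO-Y4 high. The 3 MLO-Y4 low arrays were above all 2T3 arrays, and the MLO-Y4 high arrays overlapped them. The difference was 1.64 (SE 0.45, adjusted p = 0.0465). Rrm2 no longer passed in 11 of the 12 fits that left out 1 array, all but the one without 2T3 low replicate 2, with an adjusted p of up to 0.103. It also failed to pass with the replicate number as a block within each line (adjusted p = 0.0871) and with the floor at the 50th percentile (adjusted p = 0.0715). The large subunit Rrm1 was at 53.6, 362 and 235, then 52.5, 125 and 171 in 2T3 low and C0, and at 41.2, 53.8 and 28.3, then 50.2, 35.9 and 6.33 in MLO-Y4 low and high. Its difference of -2.13 (SE 0.63) had an adjusted p of 0.0681, and Rrm1 passed without 2T3 low replicate 1. Its values on MLO-Y4 low replicate 1 and MLO-Y4 high replicate 3 were below the limit of those arrays. The size of the Rrm1 difference therefore rests in part on undetected values.

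In origin licensing, 1 of 12 members passed between the lines. Mcm5 was at 168, 235 and 142 in 2T3 low, 299, 167 and 221 in 2T3 C0, 148, 73.2 and 103 in MLO-Y4 low and 76.4, 24.2 and 42.7 in MLO-Y4 high. Only MLO-Y4 low replicate 1 exceeded the lowest 2T3 array. The difference was -1.58 (SE 0.33, adjusted p = 0.0140), 2.98-fold lower. The other helicase subunits on the array gave -0.76 for Mcm4 (SE 0.37, adjusted p = 0.285), -0.02 for Mcm2 (SE 0.77, adjusted p = 0.998) and 0.14 for Mcm6 (SE 0.37, adjusted p = 0.888). Of the origin recognition complex, which marks where replication begins, Orc6 differed by -0.96 (SE 0.33, adjusted p = 0.118), and Orc3, Orc4 and Orc5 were above the limit on 4, 2 and 5 arrays.

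Among polymerases, primase, clamp and loader, 1 of 9 members passed. Pola2 was at 125, 147 and 90.0 in 2T3 low, 205, 250 and 123 in 2T3 C0, 115, 79.1 and 51.7 in MLO-Y4 low and 45.1, 58.0 and 53 in MLO-Y4 high. The lines overlapped through MLO-Y4 low replicate 1, and the value on MLO-Y4 high replicate 1 was below that array's limit. The difference was -1.22 (SE 0.28, adjusted p = 0.0212), 2.33-fold lower, and the adjusted p was 0.0550 without 2T3 C0 replicate 2 and 0.0503 without 2T3 low replicate 2. It was 0.0544 when only spots above the limit on at least 3 arrays were tested. Pola1, the catalytic subunit of the same polymerase, was above the limit on 5 of 6 2T3 arrays and on 0 of 6 MLO-Y4 arrays, and did not pass (adjusted p = 0.0718). Pold1 differed by -1.01 (SE 0.34, adjusted p = 0.111), and Pcna, the sliding clamp, by 0.19 (SE 0.40, adjusted p = 0.851). Of the 7 members of this role above the limit on at least 6 arrays, 3 had a difference above 0, Pcna among them. This count turned with the scaling: 5 of the 7 were above 0 with equal array medians and 1 with scaling on the spots detected everywhere. Without 2T3 low replicate 1, 0 of the 7 were above 0.

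Of the mitotic members, Plk1 and Kif20a passed. Plk1, a kinase of mitotic entry, was at 203, 356 and 433 in 2T3 low, 123, 227 and 367 in 2T3 C0, 108, 146 and 112 in MLO-Y4 low and 107, 117 and 67.6 in MLO-Y4 high. Only MLO-Y4 low replicate 2 exceeded the lowest 2T3 array, 2T3 C0 replicate 1. The difference was -1.29 (SE 0.32, adjusted p = 0.0327), 2.45-fold lower. It passed in 3 of the 12 fits that left out 1 array, those without 2T3 C0 replicate 1, 2T3 low replicate 1 or MLO-Y4 high replicate 2, and the adjusted p was at most 0.0798 in the other 9. It was 0.0570 when only spots above the limit on at least 3 arrays were tested. Kif20a, a kinesin of the dividing cell's midzone, was at 35.5, 24.1 and 123 in 2T3 low, 87.5, 32.8 and 103 in 2T3 C0, 6.08, 6.08 and 29.3 in MLO-Y4 low and 8.25, 8.33 and 19.2 in MLO-Y4 high. It was above the limit on 6 of 6 2T3 arrays and 2 of 6 MLO-Y4 arrays, so the fitted difference of -2.40 (SE 0.57, adjusted p = 0.0254) depends on the floor. With the floor at the 50th percentile it was -1.17 (adjusted p = 0.185). Kif20a passed without 2T3 C0 replicate 2, 2T3 low replicate 1 or 2, or replicate 3 of either MLO-Y4 group, and not in the other 7 such fits, where the adjusted p reached 0.0661. Kif4, a chromosome-bound kinesin, differed by -1.34 (SE 0.45, adjusted p = 0.105). Bub1, a spindle checkpoint kinase, was above the limit on 5 of 6 2T3 arrays and 0 of 6 MLO-Y4 arrays without passing, and its partner Bub3 differed by 0.45 (SE 0.24, adjusted p = 0.344). Top2a, which untangles copied chromosomes, differed by -0.32 (SE 0.78, adjusted p = 0.881). Without 2T3 low replicate 1, where it lay at the floor, the Top2a difference was -1.17 and again did not pass.

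None of the 27 spots of other cyclins, Cdc37, other Cdk genes and other kinesins passed between the lines. Ccng1, a p53 target, differed by 1.14 (SE 0.42, adjusted p = 0.140), Ccnt1, a cyclin of transcription elongation, by -0.20 (SE 0.28, adjusted p = 0.758), and Cdc37, a chaperone for kinases, by -0.12 (SE 0.71, adjusted p = 0.953). Cdk7, which activates other Cdk kinases, gave 0.98 (SE 0.45, adjusted p = 0.255), Cdk14 -0.31 (SE 0.38, adjusted p = 0.720) and Cdk16 -1.01 (SE 0.40, adjusted p = 0.180). The other kinesins Kif5b, Kif1b and Kif2a gave -1.49 (SE 0.59, adjusted p = 0.176), 0.59 (SE 0.45, adjusted p = 0.538) and -0.14 (SE 0.64, adjusted p = 0.937).

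**Figure D3:**
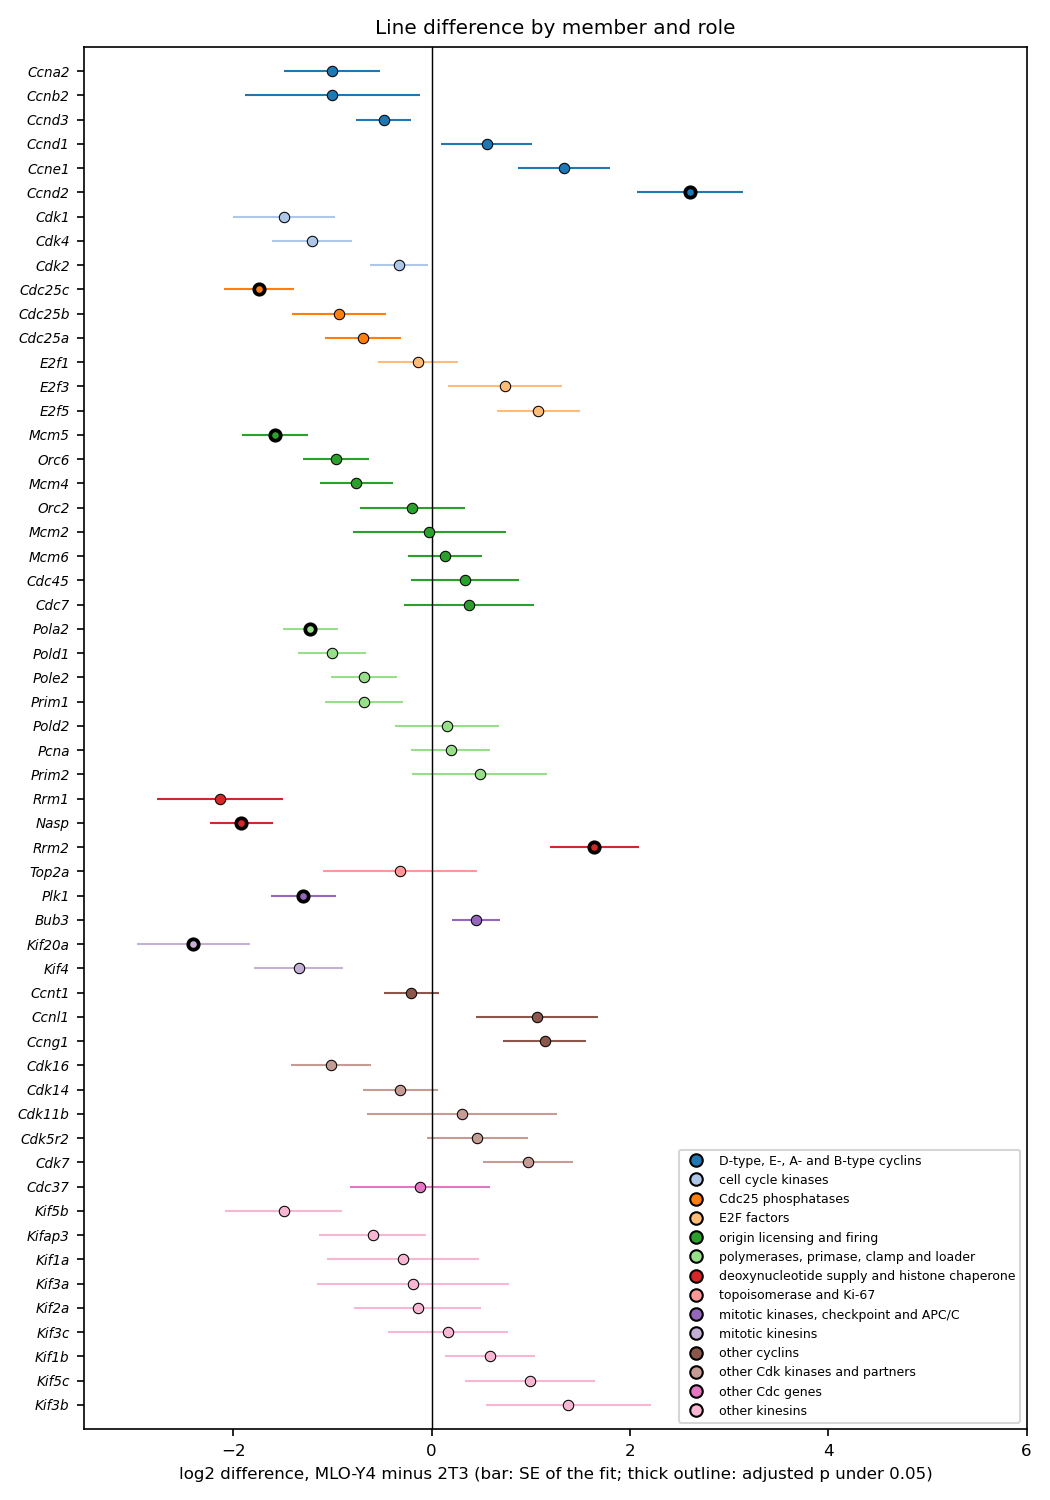
Log2 difference between the lines, MLO-Y4 minus 2T3, for the members above the limit on at least 6 arrays, grouped by role, with bars for the SE. Thick outlines mark the 8 members with an adjusted p under 0.05 in limma, from 2.61 for Ccnd2 to -2.40 for Kif20a.

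These counts moved with the arrays and settings used. With the replicate number as a block over all arrays, 13 members passed, the 8 above among them. Of these, 3 were higher (4%, against 7.16% of spots) and 10 lower (13.3%, against 4.45% of spots). With the number as a block within each line, 7 passed (9.33%, against 7.4% of spots), without Rrm2. Leaving out 2T3 low replicate 1 gave 10, of which 1 was higher (1.33%, against 5.59% of spots) and 9 lower (12%, against 3.6% of spots), with Ccna2, Orc6 and Rrm1 added and Rrm2 lost. Leaving out 1 array gave 5 to 10, the 5 arising without 2T3 C0 replicate 2, 2T3 low replicate 3, MLO-Y4 low replicate 1 or MLO-Y4 low replicate 2. With arrays scaled to equal medians, 5 passed (6.67%, against 10.1% of spots), of which 3 were higher (4%, against 8.23% of spots) and 2 lower (2.67%, against 1.87% of spots). Equal medians kept Ccnd2, Rrm2, Nasp and Kif20a, lost Mcm5, Pola2, Plk1 and Cdc25c, and added E2f5. That scaling turned the sign of 13 of the 56 members above the limit on at least 6 arrays, none of which had passed, among them Cdk2, Ccnd3, Top2a, E2f1, Mcm2, Ccnt1, Cdk14, Cdc37 and Kif2a. Scaling on the spots detected everywhere turned 6, with Pcna among them and none that had passed. Among all calls on the array, 62.6% were higher in MLO-Y4 here, 81.5% with equal medians and 43.8% with scaling on the spots detected everywhere.

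Set at their low groups alone, the lines differed in 1 member, Nasp, of 75 (1.33%, against 3.94% of spots). Nasp was 4.62-fold lower in MLO-Y4 low than in 2T3 low (-2.21, SE 0.45, n = 3 arrays a group, adjusted p = 0.0230). It did not pass without replicate 1 or 3 of either group, with an adjusted p of up to 0.0853. The 3 arrays of MLO-Y4 low were above the 3 of 2T3 low for Rrm2 and Ccnd2, with differences of 2.45 and 2.24 that did not pass (adjusted p = 0.0682 and 0.160).

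Between MLO-Y4 high and 2T3 C0, 3 members were lower in MLO-Y4 and none higher (4%, against 3.36% of spots in either direction, with 1.05% lower and 2.31% higher). Cdc25c was 5.65-fold lower (-2.50, SE 0.50, adjusted p = 0.0225), Mcm5 5.19-fold lower (-2.38, SE 0.47, adjusted p = 0.0220) and Pola2 3.57-fold lower (-1.84, SE 0.40, adjusted p = 0.0323). For all 3 genes the 3 arrays of MLO-Y4 high lay below the 3 of 2T3 C0. Cdc25c and Pola2 were below the limit on MLO-Y4 high replicate 1, so their folds rest in part on an undetected value. Counted without a test, 14 members had all 3 MLO-Y4 high arrays below all 3 2T3 C0 arrays (18.7%, against 7.95% of spots), among them Nasp, Kif20a, Mcm4, Orc6, Rrm1, Plk1, Top2a and Ccna2, and 3 had them all above (4%, against 8.65% of spots): Ccnd2, E2f5 and Cdk7. Some of the 14 rest in part on undetected values. Kif20a was below the limit on MLO-Y4 high replicates 1 and 2, Mcm4 on replicates 1 and 3, Nasp on replicate 1 and Rrm1 on replicate 3. At an unadjusted p of 0.05, 15 members were lower (20%, against 6.28% of spots). The 3 calls were lost with equal array medians, under which Ccnd2 alone passed and was higher in MLO-Y4, and without 2T3 C0 replicate 1, under which none passed. Counts also fell to 1 without 2T3 C0 replicate 2 or any one of the MLO-Y4 high arrays. Without MLO-Y4 high replicate 2, Cdc25c, Mcm5 and Pola2 all failed to pass, so the 1 member counted there was another. Pola2 did not pass when only spots above the limit on at least 3 arrays were tested (adjusted p = 0.0831) or with an intensity trend in the variance (adjusted p = 0.0621). With the replicate number as a block, Kif20a passed as well, for 4 in all (5.33%, against 4.67% of spots).

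Within 2T3, no member and no spot passed between C0 and low (0% of 75 and of 5030). At an unadjusted p of 0.05, 3 members differed (4%, against 5.29% of spots): Cdk2 and Orc6, higher in C0 by 1.14 (SE 0.41) and 1.28 (SE 0.47), and Pold1, lower by 1.31 in C0 (difference -1.31, SE 0.48). The groups did not overlap for 7 members (9.33%, against 9.05% of spots). Cdk2 was at 124, 164 and 184 in low and 454, 299 and 295 in C0, and Orc6 at 21.6, 58.7 and 42.2 in low and 112, 61.3 and 112 in C0. Both genes were higher on every C0 array than on every low array. The median member difference was 0.20, with 50 of 75 members above 0, and the median of all spots was 0.00.

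This lean toward C0 was absent without 2T3 low replicate 1. The median member difference was then -0.0034, with 37 of 75 members above 0, and again no spot passed. Top2a was at 6.08, 147 and 218 in low and 207, 326 and 148 in C0, and its difference was 1.89 (SE 1.10) with the array and 0.27 without it. Ccnb2 went from 2.07 to 1.08, Ccna2 from 1.48 to 0.57, Prim2, a primase subunit, from 1.27 to 0.12, and Mcm2 from 0.98 to -0.19. The differences of Cdk2, Orc6 and Pold1 were 0.98, 0.94 and -1.05 without it, with unadjusted p of 0.0671, 0.0757 and 0.0838 in limma. The 2 members then under 0.05 were Ccng1 (-1.49) and Rfc1, the latter above the limit on no array. The share of all spots is not given beside this count.

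Within MLO-Y4, no member and no spot passed between high and low (0%). At an unadjusted p of 0.05, 2 members differed (2.67%, against 2.31% of spots), both subunits of the Mcm helicase and both lower in high. Mcm4 was at 83.4, 41.2 and 42.7 in low and 13.8, 28.7 and 16.3 in high, with no overlap, a difference of -1.50 (SE 0.52). Its values on MLO-Y4 high replicates 1 and 3 were below the limit of those arrays, so the size of this difference rests in part on undetected values. Mcm5, whose values are given above, differed by -1.27 (SE 0.47) with 1 overlapping array. Mcm6 and Mcm2 differed by -0.06 (SE 0.53) and 0.26 (SE 1.09). The groups did not overlap for 3 members (4%, against 4.51% of spots), Mcm4, Kif3b and Kifap3. The median member difference was -0.11, with 27 of 75 above 0, and the median of all spots was 0.00.

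**Figure D4:**
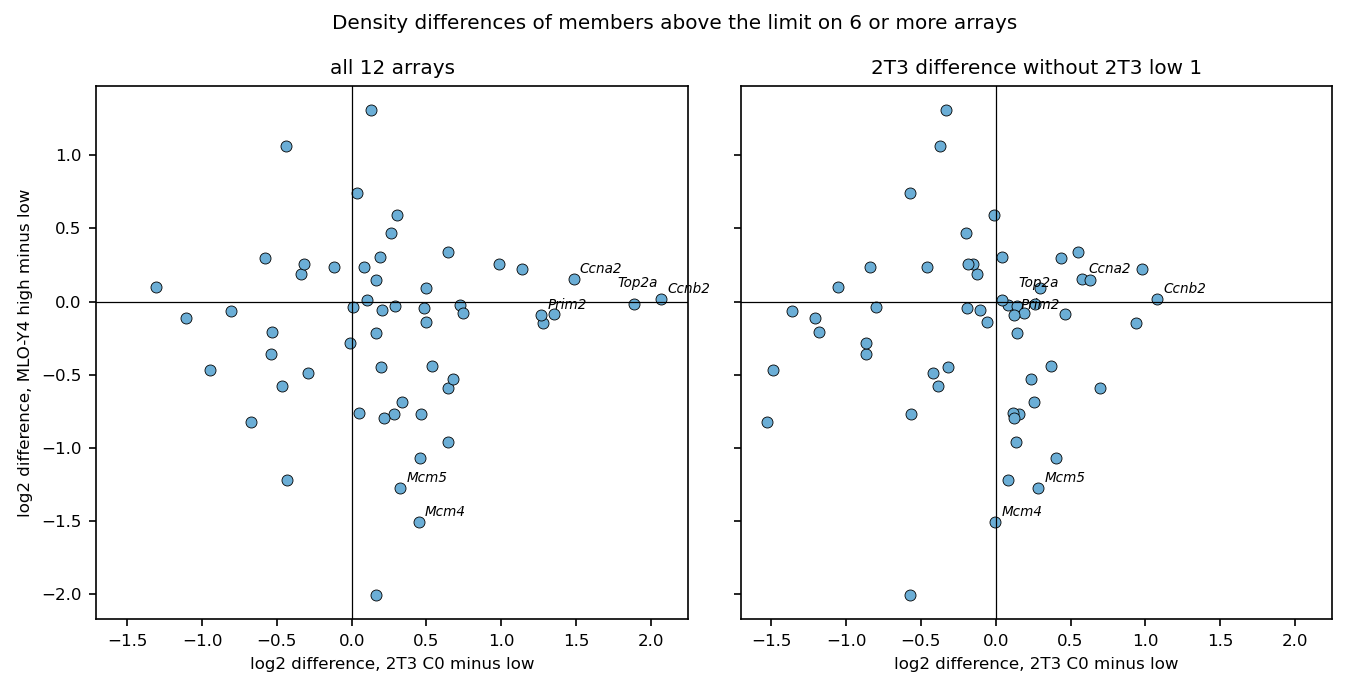
Log2 difference of MLO-Y4 high minus low (vertical axis) against 2T3 C0 minus low (horizontal axis) for the members above the limit on at least 6 arrays, with all 12 arrays on the left and with the 2T3 difference computed without 2T3 low replicate 1 on the right. Top2a moves from 1.89 to 0.27 and Prim2 from 1.27 to 0.12 along the horizontal axis, while Mcm4 and Mcm5 stay low on the vertical axis.

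The density difference was also tested between the lines, as MLO-Y4 high minus low less 2T3 C0 minus low. No member and no spot passed (0%). At an unadjusted p of 0.05, 2 members differed (2.67%, against 2.88% of spots), again Mcm4 (-1.95) and Mcm5 (-1.60). The Mcm4 value likewise rests in part on MLO-Y4 high arrays where it was below the limit. The median member value was -0.31, beside 0.00 for all spots, and -0.13 without 2T3 low replicate 1. Precision limited these comparisons: the median SE of a member was 0.65 for a density difference, 0.92 for the difference between the lines in it and 0.46 for the difference between lines over 12 arrays.

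Genes that act on or beside the members were followed in lists by function, and their counts stand beside 5.83% of all spots higher and 3.48% lower in MLO-Y4. Of 12 measured Cdk inhibitors and pocket proteins, 2 were higher in MLO-Y4 and none lower. Cdkn1a, the inhibitor induced by p53, was 21.0-fold higher (4.39, SE 0.30, adjusted p = 1.4e-05), with a geometric mean of 67.9 in 2T3 and 1422 in MLO-Y4. Cdkn2a, the locus of a Cdk4 inhibitor and of an Mdm2 inhibitor, differed by 1.34 (SE 0.27, adjusted p = 0.0114). Of 14 checkpoint and p53 genes, 1 was higher: Mdm2, the ubiquitin ligase of p53 and itself a p53 target, by 9.38-fold (3.23, SE 0.28, adjusted p = 6.2e-05). For these 3 genes no MLO-Y4 array overlapped a 2T3 array, and each passed under every alternative run. Cdkn1a and Mdm2 also passed with MLO-Y4 low set against 2T3 low (4.06 and 2.98) and with MLO-Y4 high set against 2T3 C0 (4.72 and 3.48).

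The other lists are given by the same counts. Of 22 spindle, kinetochore and chromosome genes, 4 were lower in MLO-Y4 and none higher: Smc1a, of the cohesin ring (-1.47, adjusted p = 0.00916), Incenp, of the chromosomal passenger complex (-1.30, adjusted p = 0.0166), Hmgb2, a chromatin protein (-1.95, adjusted p = 0.0310), and H2az1, a histone variant (-1.03, adjusted p = 0.0344). With equal array medians only Hmgb2 of these passed, and the H2az1 difference was -0.01. Of 12 replication and ligation factors, 2 were lower, Rpa2 (-1.73, adjusted p = 0.0371) and Ung (-1.79, adjusted p = 0.0472). Of 9 proliferation transcription factors, Myc was higher (1.23, adjusted p = 0.0207) and Id3 lower (-1.60, adjusted p = 0.0488). Rpa2, Ung and Id3 did not pass with equal array medians (adjusted p = 0.203, 0.0912 and 0.423). Of 6 nucleotide synthesis genes none passed. Leaving out 1 array at a time, Smc1a and Incenp passed in all 12 fits. Myc did not pass without 2T3 C0 replicate 3 or MLO-Y4 low replicate 2 (adjusted p of up to 0.0547). Nor did Myc pass when only spots above the limit on at least 3 arrays were tested (adjusted p = 0.0531). The calls of Hmgb2, H2az1, Rpa2, Ung and Id3 were lost in 9, 9, 8, 10 and 11 of the 12 fits, with an adjusted p of up to 0.110. No gene of any of these lists passed within a line.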

How the data were processed

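The deposited values are linear spot intensities, read as background-subtracted because some lie below 0. The scanner software, its background correction and any scaling by the authors are not stated in the labels. Spots were named through the platform annotation, with symbols updated by Entrez identifier (4624 spots; 9 as given, 5 with several symbols and 392 unnamed). Arrays were quantile-normalized with limma 3.58.1 in R 4.3.3, values were floored at their 25th percentile (6.08) and log2 was taken. Quantile scaling was used because array medians lie near background. Group means were fitted over 12 arrays (lmFit, eBayes, 8 residual degrees of freedom), p-values were two-sided with Benjamini-Hochberg adjustment over 5030 spots, and the threshold was 0.05. The script was tested on simulated data.

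The members, roles, related lists and detection rule were chosen with earlier results of these data known. Named were Ccnd2, Rrm2, Nasp, Kif20a, every member past the threshold, up to 4 members a role of highest mean level where none passed, and at most 4 genes past it per related list. Other members named were chosen after their values were seen. Replicate numbers were shared between groups. Deviations of same-numbered arrays correlated at 0.48 to 0.63 between MLO-Y4 low and high, 0.31 to 0.53 between 2T3 C0 and MLO-Y4 high, and 0.28 to 0.49 between 2T3 C0 and MLO-Y4 low, so by the values, not the labels, the numbers pair these groups. They correlated at 0.04 to 0.15 between 2T3 low and C0, which they do not pair. Printed values come from the fit without a block unless a block is named. Alternatives covered scaling, floor, filter, variance trend, array weights, replicate block and arrays left out. Promoters came from RefSeq (GRCm38.p6).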

Additional observations from a re-analysis of the deposited data

How the results depend on the processing

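For MLO-Y4 against 2T3, where 8 members passed, 5 passed with equal array medians (6.67%, against 10.1% of all spots), 15 with scaling on the spots detected everywhere (20%, against 10.9%), 20 with array weights (26.7%, against 15.2%) and 13 with the replicate block (17.3%, against 11.6%), and 5 to 10 when 1 array was left out. For MLO-Y4 low against 2T3 low, where 1 passed, the counts were 0, 2, 4 and 2 in the same order, beside 3.74%, 4%, 8.03% and 5.05% of all spots, and 0 to 2 with 1 array left out. For MLO-Y4 high against 2T3 C0, where 3 passed, they were 1, 5, 9 and 4, beside 2.76%, 3.8%, 7.12% and 4.67%, and 0 to 3 with 1 array left out. Without all 4 arrays numbered 1, a setting chosen after seeing the data, the counts were 6, 0 and 0. That fit had fewer arrays. Its counts, like the ranges with 1 array left out, have no share of all spots beside them here, so they are not read as a result about the members. The cause of these shifts was not tested. The counts within a line, and of the density difference between lines, were 0 in every setting. No member that had passed changed direction. Between the lines, Ccnd2 and Nasp passed in all 8 alternatives to the scaling, floor, filter, model and block and in all 12 fits without 1 array. Cdc25c and Mcm5 passed in all 12 such fits but not with equal medians (adjusted p = 0.0711 and 0.262). With the floor at the 50th percentile Kif20a did not pass (adjusted p = 0.185). The block changed no call within a line. The planned floor at the 10th percentile was not run because that percentile was not above 0. Members near the detection limit limit what these arrays can show.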

Other observations

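Some members carried values from single arrays that the groups do not describe. Kif3a, a subunit of the kinesin that moves cargo along cilia, was at 82.1, 119 and 66.8 on the arrays numbered 1 of 2T3 C0, MLO-Y4 low and MLO-Y4 high, and between 565 and 1664 on the other 9 arrays. One of the 2 Cdk11b spots was at 35.8, 30.4 and 55.5 on the same 3 arrays and at 66.8 on 2T3 low replicate 1, against 242 to 596 on the other 8. Kif3b, the partner of Kif3a, was at 864 on MLO-Y4 low replicate 1 and at most 30.4 elsewhere. Orc2 was at 280 on 2T3 low replicate 1 and at most 78.1 elsewhere. The 2 Cdk11b spots disagreed in detection, with 2 and 11 arrays above the limit.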
